A study of Rattus norvegicus with 8 samples.

Results

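The genes described are 44 genes of mitosis and of the G2/M stage of the cell cycle, chosen by symbol: a gene was a member if a non-control probe of the array carried its name. Probes were present for 40 of the 44, 48 probes in all, and Mki67, Kif4a, Ncapg and Ect2 had none under these names. A gene was tested where its brightest probe exceeded background clearly in 4 or more of the 8 samples, which 35 of the 40 did, among 15011 genes tested over the whole array. The other 5, Cdc25c, Cenpe, Hmmr, Nek2 and Smc2, did not. Of the 35, 27 were well above background in all 8 samples. The other 8 were so in all 4 controls but in only 2 or 3 deficient animals, so the controls alone met the threshold. The tissue was whole liver of 8 Wistar pups, 21 days old at weaning. The dams of 4 pups ate standard food (control) and those of the other 4 a diet without vitamin B12 and folates (methyl donor deficient, here deficient). Diets began a month before pregnancy and went on to weaning, so exposure covered gestation and suckling, and every pup was exposed to halothane before decapitation. Control replicate 1 and deficient replicates 2 and 4 were male and the other animals female. Replicates were numbered by sample order. The labels do not say which pups shared a dam, so littermates may be among them, and p-values then reflect only the variation among these 8 pups. Total RNA of 1 control and 1 deficient animal, in different dyes, shared each of 4 two-colour arrays: control 1 and deficient 3 on array 1, control 3 and deficient 1 on array 2, control 2 and deficient 4 on array 3, and control 4 and deficient 2 on array 4.

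Entry into mitosis is driven by cyclin-dependent kinase 1 bound to cyclins A and B. Aurora and polo-like kinases then build the spindle, the spindle checkpoint holds the cell until every chromosome is attached, and the anaphase-promoting complex (APC/C), a ubiquitin ligase, destroys cyclin B and securin so that chromosomes separate. Many of these genes are transcribed together late in the cycle under FOXM1, MYB-related protein B and the MuvB complex. Liver around weaning still grows, and hepatocytes in young rats divide and become binucleate or polyploid, while adult hepatocytes seldom divide. The liver also holds dividing cells of other types.

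The comparison asked whether transcripts of the mitotic machinery differed between livers of deficient and control pups. Values are normalised spot intensities on a log2 scale, and differences are deficient minus control on that scale with the standard error (SE) of the limma fit over n = 4 animals in each group. A gene was called where the p-value adjusted by Benjamini-Hochberg over all genes tested was under 0.05. Of the 35 members tested, 15 were called lower in deficient livers and 0 higher, or 42.9% lower, against 6.51% of all genes called lower and 4.52% called higher. By the limma p-value before adjustment, 30 of the 35 were lower and 0 higher at 0.05, against 14.8% of all genes lower. The 15 include Aurkb, Bub1b, Melk and Tpx2, which were well above background in all controls but not in all deficient animals. Where all 8 samples had to be well above background, 11 of the 27 members that were so were called lower and 0 higher, with a median of -0.50. Over all genes, 1521 were called in either direction in this setting, against 1655 in the main fit. The fitted difference was below 0 for every one of the 35, from -0.90 for Aurka to -0.12 for Cdca8, with a median of -0.44, while the median over all genes tested was 0.01 and 7236 of 15011 lay below 0. In 9 members every deficient animal measured lay below every control (Aurka, Aurkb, Bub1, Melk, Ncapd2, Prc1, Pttg1, Tpx2 and Ttk), or 25.7%, against 5.92% of all genes. Of these, Aurkb, Melk and Tpx2 passed the filter on background through the controls alone. The 15 called differences ran from -0.90 to -0.33, and the other 20 from -0.74 to -0.12 with limma adjusted p-values from 0.0514 to 0.298. In whole tissue, fewer dividing cells and less of a transcript in each cell cannot be told apart.

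**Figure D1:**
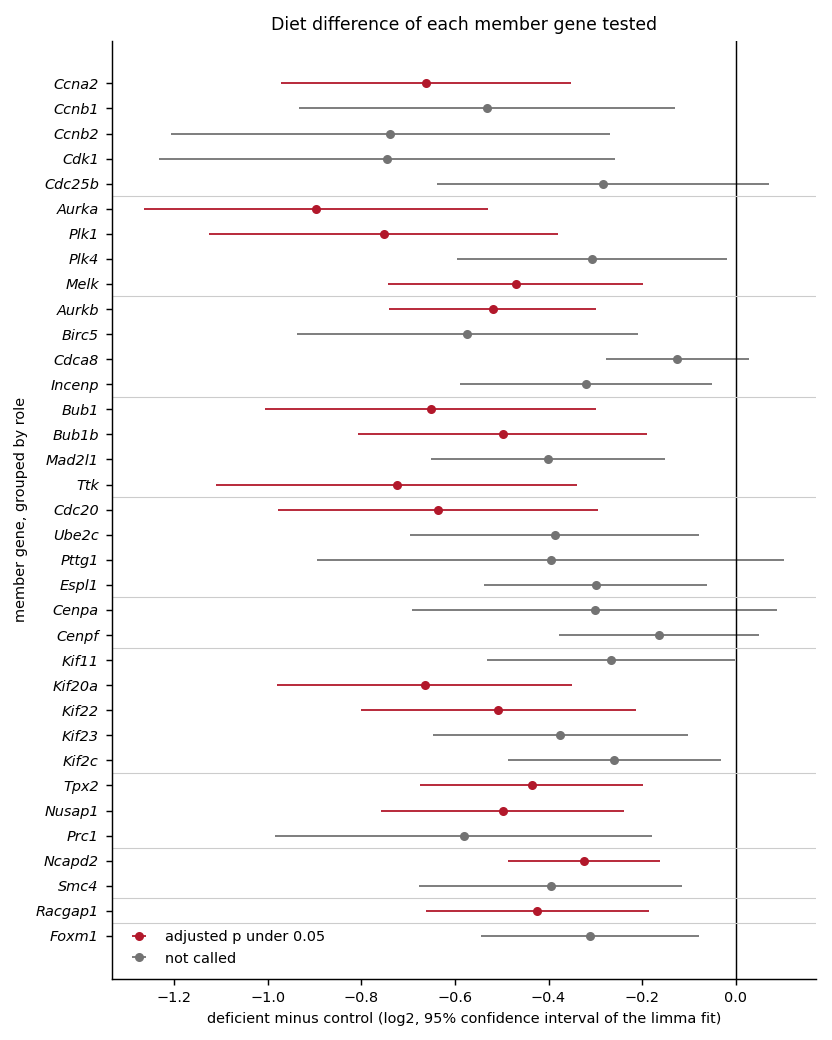
Difference of each of the 35 member genes tested, deficient minus control (log2, x axis), with the 95% confidence interval of the limma fit over 4 animals in each group. Genes are grouped by role (y axis), and red marks the 15 with an adjusted p under 0.05. Every point lies to the left of 0, from -0.90 for Aurka to -0.12 for Cdca8.

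The animals did not contribute equally. With each member centred on its mean over the 8 animals, the median over members was 0.19, 0.01, 0.26 and 0.38 in controls 1 to 4 and -0.69, -0.03, 0.05 and -0.24 in deficient animals 1 to 4. Deficient replicate 1 was thus far below the others, and deficient replicate 3 lay slightly above control replicate 2, so the groups overlapped on this measure. Deficient replicate 1 had the lowest value of 33 of the 35 members and deficient replicate 4 that of the other 2, whereas control replicate 4 had the highest value of 24. On the arrays, the median difference of members within the array was -0.14, -0.94, -0.27 and -0.42 for arrays 1 to 4, against medians of all genes between -0.01 and 0.01. Members were lower in the deficient animal for 27 of 35 on array 1, 35 of 35 on array 2, 33 of 34 on array 3 and 35 of 35 on array 4, and 25 were lower on all 4 arrays. The ratios of all genes were also widest on array 2, with an SD of 0.573 against 0.312, 0.4 and 0.42 on arrays 1, 3 and 4. Without deficient replicate 1, 14 members were called lower with a median of -0.34, and without array 2 3 were called with a median of -0.32. Calls over all genes, in either direction, numbered 1491 and 904 in these fits, against 1655 with all animals.

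**Figure D2:**
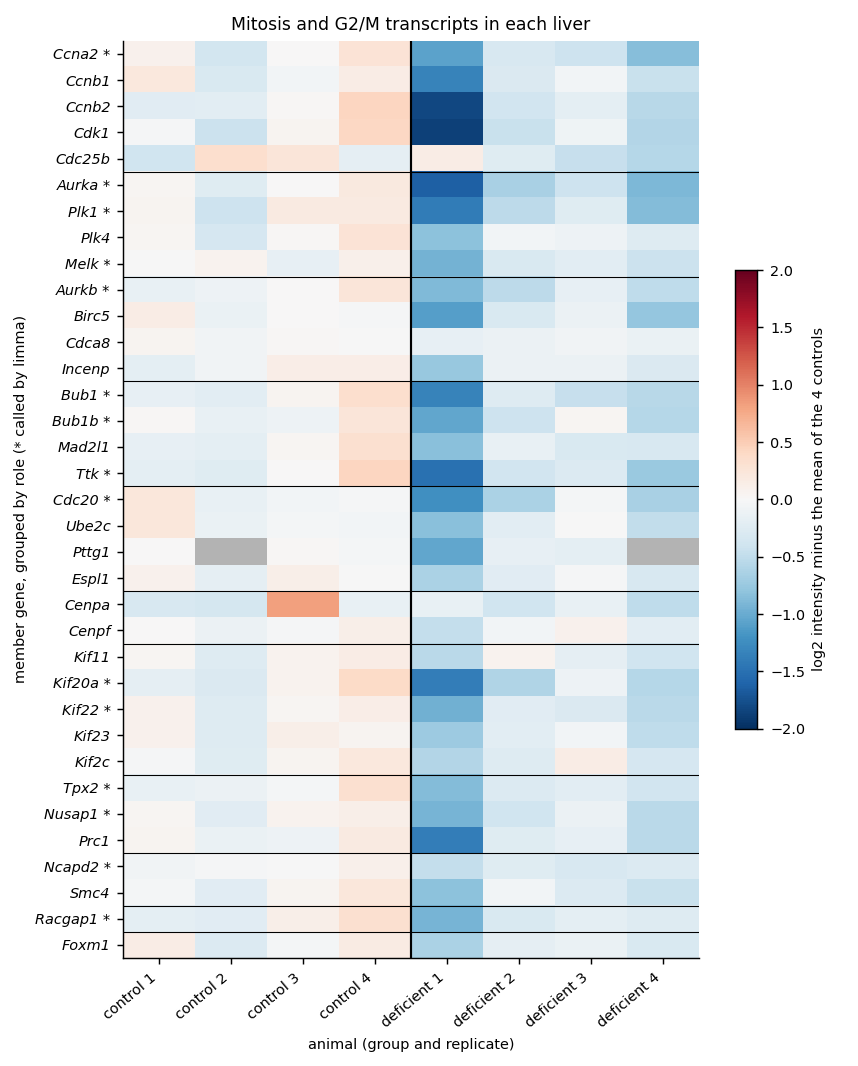
Log2 intensity of each of the 35 member genes tested (rows, grouped by role, asterisks for those called by limma) in each of the 8 animals (columns), minus the mean of the 4 controls. Blue is lower and red higher, and grey marks 2 values left out. The column of deficient replicate 1 is the deepest blue, with 33 of the 35 lowest values, and control replicate 4 is the reddest, with 24 of the highest.

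**Figure D3:**
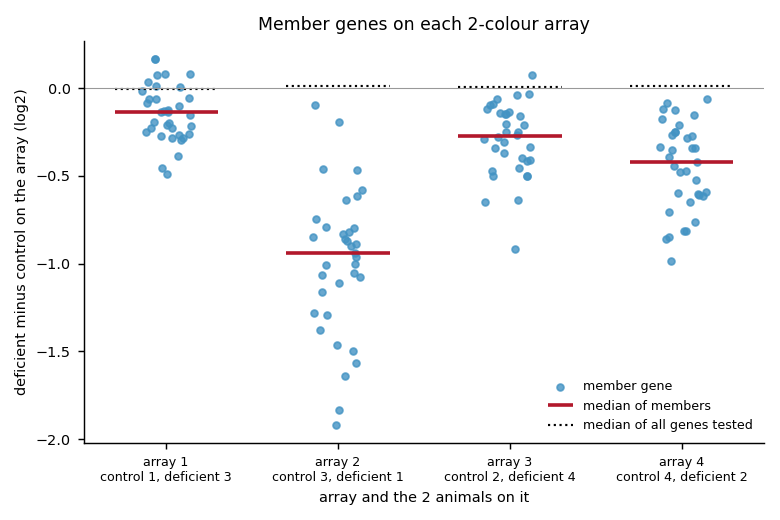
Within-array differences, deficient minus control (log2, y axis), of the member genes on the 4 arrays (x axis), each of which carries 1 control and 1 deficient animal. Red bars are medians of members (-0.14, -0.94, -0.27 and -0.42) and dotted bars medians of all genes tested. Array 2 lies lowest, and on array 1 the median of members is closest to 0.

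Of the mitotic cyclins, their kinase and its activating phosphatase, 1 of 5 tested was called. Ccna2, the A-type cyclin of S phase and mitotic entry, lay at 10.39, 9.93, 10.32 and 10.59 in controls 1 to 4 and at 9.24, 9.98, 9.90 and 9.46 in deficient animals 1 to 4. Control 2 lay below deficient 2, so the groups overlapped there. Ccna2 fell by 0.66 ± 0.14 (limma adjusted p = 0.0196), and its second probe gave -0.63 (limma adjusted p = 0.0155 in the fit of probes). Cdk1, the kinase that starts mitosis, measured 12.12, 11.71, 12.20 and 12.56 in the controls and 10.28, 11.70, 12.06 and 11.56 in the deficient animals. Deficient 1 stood far below all other animals, deficient 2 and 4 just below the lowest control and deficient 3 among the controls, and the difference of -0.74 ± 0.21 was not called (limma adjusted p = 0.0596). Ccnb1, the main mitotic cyclin, had 9.89, 9.38, 9.62 and 9.82 against 8.34, 9.38, 9.62 and 9.24, with deficient 3 at the level of control 3, and was not called (-0.53 ± 0.18, limma adjusted p = 0.0904). Ccnb2, the second B-type cyclin, differed by -0.74 ± 0.21 (limma adjusted p = 0.0545). Cdc25b, a phosphatase that activates cyclin-dependent kinases, followed another order. It lay at 9.76, 10.51, 10.41 and 9.99 in controls and 10.31, 9.92, 9.70 and 9.59 in deficient animals, with deficient 1 the highest of its group, and its difference was -0.28 ± 0.16 (limma adjusted p = 0.278).

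Among the kinases that organise the spindle, the largest change of all members was that of Aurka, the aurora kinase of centrosomes and spindle poles. Its values were 10.38, 10.09, 10.34 and 10.53 in controls 1 to 4 and 8.71, 9.68, 9.92 and 9.44 in deficient animals 1 to 4. Every deficient animal lay below every control, the nearest values being 10.09 in control 2 and 9.92 in deficient 3, and Aurka fell by 0.90 ± 0.16 or 1.86-fold (limma adjusted p = 0.0118). The probe lies in the rn4 build on chromosome 3 from 163271264 to 163271323. Plk1, the polo-like kinase that acts from mitotic entry to cytokinesis, measured 10.60, 10.14, 10.72 and 10.73 in controls and 9.16, 10.03, 10.31 and 9.69 in deficient animals. Control 2 and deficient 3 overlapped, and Plk1 fell by 0.75 ± 0.16 (limma adjusted p = 0.0239). Melk, a kinase abundant in proliferating cells, had 7.60, 7.68, 7.45 and 7.71 against 6.66, 7.31, 7.41 and 7.18 without overlap and fell by 0.47 ± 0.12 (limma adjusted p = 0.041). Plk4, which starts the duplication of centrioles, was not called (-0.31 ± 0.13, limma adjusted p = 0.156). Both probes of Nek2, a centrosome kinase, were well above background in at most 2 samples, and it was not tested.

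The chromosomal passenger complex, which corrects faulty attachments and directs cytokinesis, had 1 of 4 members called. Aurkb, its kinase, lay at 7.40, 7.45, 7.56 and 7.79 in controls and at 6.67, 7.03, 7.39 and 7.04 in deficient animals. The ranges only just failed to meet, at 7.40 and 7.39, and Aurkb fell by 0.52 ± 0.10 (limma adjusted p = 0.0133). Its partners Birc5 (survivin; -0.57 ± 0.16, limma adjusted p = 0.0541) and Incenp, the scaffold (-0.32 ± 0.12, limma adjusted p = 0.12), were not called. Cdca8 (borealin) had the smallest difference of the 35 members tested (-0.12 ± 0.07, 95% interval -0.28 to 0.03) and was well above background in only 2 deficient samples.

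In the spindle assembly checkpoint 3 of 4 members were called. Ttk, the kinase that recruits the checkpoint to kinetochores, measured 8.48, 8.42, 8.67 and 9.09 in controls and 7.18, 8.28, 8.39 and 7.92 in deficient animals, and Bub1, a kinetochore kinase of the checkpoint, 9.49, 9.45, 9.71 and 10.00 and 8.33, 9.40, 9.20 and 9.11. Neither gene's groups overlapped, though the highest deficient value came close to the lowest control for both. Ttk fell by 0.72 ± 0.17 (limma adjusted p = 0.0315) and Bub1 fell by 0.65 ± 0.16 (limma adjusted p = 0.0338). A second probe of Bub1 was not well above background in any sample. Bub1b, which with Mad2l1 inhibits the APC/C, had its call at the edge of the threshold (-0.50 ± 0.14, limma adjusted p = 0.0499), and Mad2l1 was not called, just outside it (-0.40 ± 0.11, limma adjusted p = 0.0514).

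Cdc20, the activator through which the APC/C recognises its mitotic substrates, lay at 10.92, 10.55, 10.63 and 10.66 in controls 1 to 4 and at 9.47, 10.05, 10.65 and 10.05 in deficient animals 1 to 4. Deficient 3 stood among the controls while the other deficient animals were lower, and Cdc20 fell by 0.64 ± 0.15 (limma adjusted p = 0.0325). The other genes of chromosome separation were not called, namely Ube2c, the ubiquitin-conjugating enzyme of the APC/C (-0.39 ± 0.14, limma adjusted p = 0.105), Espl1 (separase; -0.30 ± 0.10, limma adjusted p = 0.103) and Pttg1 (securin; -0.40 ± 0.21, limma adjusted p = 0.276). Pttg1 measured 11.93, 11.95 and 11.89 in controls 1, 3 and 4 and 10.89, 11.77 and 11.73 in deficient animals 1 to 3. Both its values of array 3 were left out because of high local background, so it rests on 3 animals in each group, which did not overlap, with deficient 1 far below the rest.

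Among the mitotic kinesins, motors that move along spindle microtubules, 2 of 5 were called. Kif20a, a motor of the central spindle, had 9.59, 9.48, 9.83 and 10.15 in controls and 8.37, 9.17, 9.67 and 9.19 in deficient animals. Deficient 3 lay above controls 1 and 2, and Kif20a fell by 0.66 ± 0.14 (limma adjusted p = 0.0205). Kif22, which pushes chromosome arms outward, measured 10.65, 10.30, 10.59 and 10.68 in controls against 9.59, 10.33, 10.26 and 10.02 in deficient animals. Deficient 2 and control 2 overlapped, and Kif22 fell by 0.51 ± 0.13 (limma adjusted p = 0.041). Kif23, Kif11 and Kif2c differed by -0.37 ± 0.12, -0.27 ± 0.12 and -0.26 ± 0.10, none of them called (limma adjusted p from 0.0812 to 0.178).

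Of the proteins that assemble and bundle spindle microtubules, Nusap1 lay at 9.73, 9.45, 9.75 and 9.81 in controls and 8.75, 9.29, 9.57 and 9.14 in deficient animals, and Tpx2, which activates aurora kinase A at the spindle, at 7.63, 7.66, 7.74 and 8.10 and 6.91, 7.50, 7.57 and 7.39. Deficient 3 overlapped the controls for Nusap1, while the groups of Tpx2 did not overlap. Nusap1 fell by 0.50 ± 0.11 (limma adjusted p = 0.0296) and Tpx2 fell by 0.44 ± 0.10 (limma adjusted p = 0.0343). Prc1, which bundles the central spindle, lay between 8.95 and 9.27 in controls and between 7.70 and 8.93 in deficient animals. It was not called although its groups did not overlap (-0.58 ± 0.18, limma adjusted p = 0.0708), and its second probe gave -0.30 (limma adjusted p = 0.113 in the fit of probes). Racgap1, which with Kif23 forms the centralspindlin complex of cytokinesis, measured 8.16, 8.14, 8.48 and 8.68 in controls and 7.43, 8.06, 8.17 and 8.10 in deficient animals. Deficient 1 stood far below the other deficient animals, while deficient 3 lay just above controls 1 and 2, and Racgap1 fell by 0.42 ± 0.10 (limma adjusted p = 0.0382).

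Ncapd2, a subunit of the condensin that compacts mitotic chromosomes, varied little within groups. It lay at 8.65, 8.69, 8.70 and 8.82 in controls 1 to 4 and at 8.24, 8.48, 8.40 and 8.44 in deficient animals 1 to 4. The groups did not meet and the SD was 0.07 in controls and 0.10 in deficient animals, so that the fall of 0.33 ± 0.07 (limma adjusted p = 0.0247), the smallest called among members, exceeded the spread between animals. Smc4, a core subunit of condensin, was not called (-0.40 ± 0.12, limma adjusted p = 0.0756). Of the centromere proteins, Cenpa, the histone H3 variant that marks centromeres (-0.30 ± 0.17), and Cenpf (-0.16 ± 0.09) were not called (limma adjusted p = 0.293 and 0.298), and Cenpa was high in control 3 alone, at 8.65 against at most 7.67 in the other controls. Foxm1, the transcription factor of G2/M genes, lay at 8.88, 8.47, 8.69 and 8.90 in controls and 8.11, 8.56, 8.59 and 8.43 in deficient animals. Control 2 lay below deficient 2 and 3, and the difference of -0.31 ± 0.10 was not called (limma adjusted p = 0.087). The members not tested, Cdc25c, Cenpe, Hmmr, Nek2 and Smc2, were well above background in at most 2 of the 8 samples, with plain differences of group means between -0.19 and 0.09, which at this signal give no order.

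**Figure D4:**
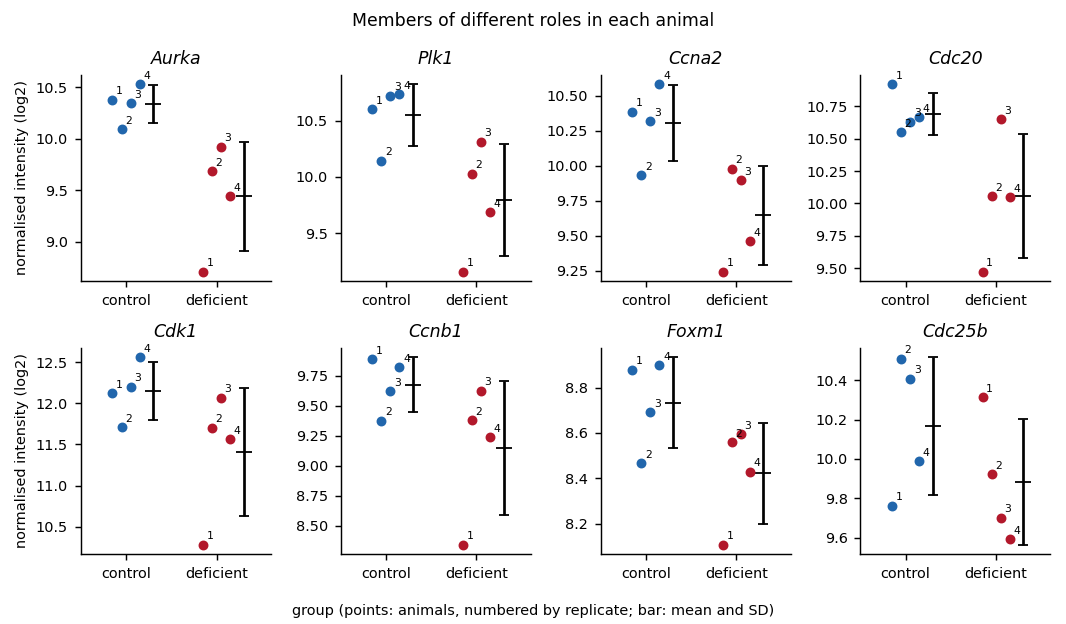
Normalised log2 intensity (y axis, not starting at 0 and scaled to each panel) of 8 members in each animal, control in blue and deficient in red, with replicate numbers and, to the right, the mean and SD of each group. Deficient replicate 1 is the lowest animal for every gene shown except Cdc25b, for which it is the highest of its group.

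Promoter sequence was looked at because members were low together in the same animals. RefSeq windows of 250 bases before to 50 after the gene start (GRCr8 build) were matched by symbol for 37 of the 44 members, Kif2c with 2 windows. The cell cycle genes homology region (CHR) is an element bound by the MuvB complex, searched here as TTTGAA or TTCGAA, and CCAAT is the element bound by NF-Y. Both strands were searched, and 2 matches overlapped a neighbouring match. A CHR match was found in 28 of 37 members (75.7%), against 19.7% of all 33469 windows and 18.5% of those of protein-coding genes. CCAAT was found in 30 of 37 (81.1%) against 37.5% and 38%, and both in 25 (67.6%) against 7.95% and 7.6%. Within the members, a CHR match stood in 7 of 11 called and in 14 of 17 tested but not called. A match describes letters in a window and is not a measured binding site.

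The called members with the smallest p-values that had a window with a CHR match were Plk1, Ncapd2, Nusap1, Ttk, Cdc20 and Kif22. In Plk1, Nusap1 and Ttk the match lay after the start. The 250 bases before the start are given for the other 3, to show where the elements lie, each read 5′ to 3′ on the gene's strand. Capitals mark matches to CHR (TTTGAA, or TTCAAA where it reads on the other strand) and to CCAAT (or ATTGG).
Cdc20, chr5:137255800-137256049, minus strand: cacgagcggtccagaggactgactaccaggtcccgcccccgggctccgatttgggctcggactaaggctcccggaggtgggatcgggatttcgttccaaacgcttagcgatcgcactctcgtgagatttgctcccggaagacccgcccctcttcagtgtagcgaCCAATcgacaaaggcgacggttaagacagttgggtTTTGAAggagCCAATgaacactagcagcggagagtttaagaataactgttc
Ncapd2, chr4:159677939-159678188, minus strand: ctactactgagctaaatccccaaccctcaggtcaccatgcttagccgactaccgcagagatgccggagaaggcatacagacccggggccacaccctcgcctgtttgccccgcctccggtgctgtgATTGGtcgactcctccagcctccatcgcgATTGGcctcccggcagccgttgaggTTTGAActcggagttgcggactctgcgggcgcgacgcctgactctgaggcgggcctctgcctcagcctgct
Kif22, chr1:191080879-191081128, minus strand: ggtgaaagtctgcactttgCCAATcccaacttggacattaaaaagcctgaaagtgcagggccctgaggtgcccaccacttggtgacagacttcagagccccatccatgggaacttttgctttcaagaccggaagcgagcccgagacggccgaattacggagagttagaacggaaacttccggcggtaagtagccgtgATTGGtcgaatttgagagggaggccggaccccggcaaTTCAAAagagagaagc
The CHR match began at position -51 from the start in Cdc20, -71 in Ncapd2 and -16 in Kif22, and all 3 windows also held CCAAT. Over the members' windows 22 of 34 CHR matches and 33 of 67 CCAAT matches began within 100 bases before the start.

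Other genes of the cell cycle were grouped in lists by function. Of 51 other G2/M genes tested, 16 fell and 0 rose (31.4% lower; unadjusted, 37 lower and 2 higher in limma), with a median of -0.38. Nuf2, a subunit of the kinetochore's NDC80 complex, fell by 0.81 ± 0.15. Also called lower were Cks2, a partner of cyclin-dependent kinases (-0.73 ± 0.13), Rangap1, an activator of the Ran GTPase (-0.69 ± 0.13), and Tubb5, a beta-tubulin (-0.61 ± 0.08; all 4 with limma adjusted p from 0.00445 to 0.0134). Top2a, the topoisomerase that untangles sister chromatids, lay at 9.29, 9.20, 9.55 and 9.82 in controls and at 7.79, 9.10, 9.14 and 8.96 in deficient animals. Its groups did not overlap, deficient 1 stood far below the other deficient animals, and Top2a fell by 0.72 ± 0.19 (limma adjusted p = 0.0443). Of 28 genes of DNA replication and S phase 4 fell and 0 rose (9 lower and 0 higher unadjusted in limma), with a median of -0.23. These were Tk1, thymidine kinase (-0.85 ± 0.15), Prim1, the catalytic primase subunit (-0.86 ± 0.16), Rfc5, a clamp loader subunit (-0.54 ± 0.10), and Fen1, the flap endonuclease (-0.47 ± 0.12; limma adjusted p from 0.0101 to 0.0418). Of 27 alternative settings, Tubb5 was called in 26, Rangap1 and Tk1 in 21 each, Cks2 and Prim1 in 20 each, Rfc5 in 19, Nuf2 in 18, and Top2a and Fen1 in 7 each, with no change of direction.

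Across the G1, inhibitor, APC/C and cohesin lists, calls went in both directions. Of 9 G1 cyclins and kinases 2 rose and 0 fell (3 higher and 0 lower unadjusted in limma). Ccnd3, a D-type cyclin of G1, lay at 9.89, 9.75, 9.60 and 9.94 in controls 1 to 4 and at 11.12, 11.08, 10.38 and 11.22 in deficient animals 1 to 4. All deficient animals lay above all controls, and Ccnd3 rose by 1.15 ± 0.15 (limma adjusted p = 0.00445). Cdc25a, the phosphatase of G1 and S phase, rose by 0.33 ± 0.09 (limma adjusted p = 0.048), whereas Ccnd1 (0.28 ± 0.12) and Cdk7 (0.27 ± 0.08) were not called (limma adjusted p = 0.182 and 0.0753). Of 14 inhibitors and growth arrest genes 2 rose and 2 fell (4 lower and 2 higher unadjusted in limma), with a median of -0.20. Gadd45b, a stress-induced growth arrest gene, rose by 1.18 ± 0.15 (limma adjusted p = 0.00396) and Btg2, an antiproliferative gene, by 0.71 ± 0.17 (limma adjusted p = 0.0318), whereas Cdkn2c, an inhibitor of Cdk4 and Cdk6, fell by 0.55 ± 0.09 (limma adjusted p = 0.00826) and Btg1 fell by 0.63 ± 0.15 (limma adjusted p = 0.0343). Among the 12 APC/C subunits and regulators 1 was called (8.33%), against 11% of all genes in either direction. This was Anapc11, which rose by 0.27 ± 0.07 (limma adjusted p = 0.0451), and the list's median was 0.03. Of 8 cohesin genes only Stag1 was called (12.5%, near the share of all genes). It fell by 0.57 ± 0.11 (limma adjusted p = 0.0128), with a median of 0.03 for the list. Of 27 alternative settings, Ccnd3 and Gadd45b were called in 26 each, Cdkn2c in 22, Stag1 in 19, Btg2 in 13, Btg1 in 12, and Cdc25a and Anapc11 in 6 each, with no change of direction. Limma called 0 of the 13 E2F and DREAM regulators (3 lower and 0 higher unadjusted), with a median of -0.06. The nearest were E2f8 (-0.21 ± 0.07, limma adjusted p = 0.108), Tfdp1 (-0.31 ± 0.11), Rbbp4 (-0.19 ± 0.08) and Lin37 (-0.21 ± 0.11), with limma adjusted p-values up to 0.256. Mybl2, the gene of MYB-related protein B, differed by 0.14 ± 0.14 (limma adjusted p = 0.54).

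**Figure D5:**
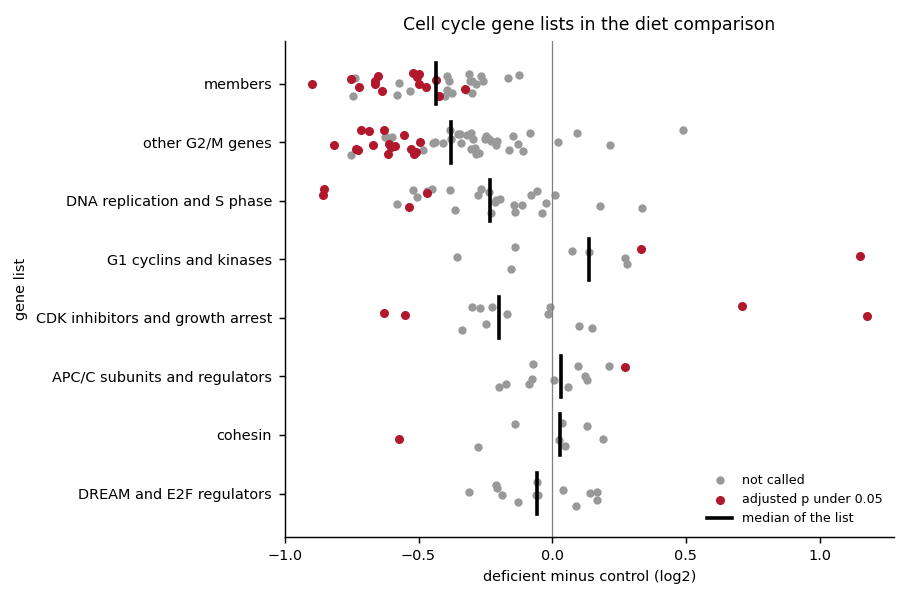
Difference of every gene tested, deficient minus control (log2, x axis), in the members and in 7 other cell cycle lists (y axis). Red points were called by limma at an adjusted p under 0.05, and black bars are medians. Members (median -0.44) and other G2/M genes (-0.38) lie lowest, S-phase genes less far (-0.23), and G1 cyclins and kinases (0.14) to the right of 0, with Ccnd3 at 1.15. The median of inhibitors and growth arrest genes (-0.20) is near that of S-phase genes.

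The number of calls depended on single animals. Against the 15 members called lower with all animals, limma called 0 without control 1, 2 without control 2, 0 without control 3, 4 without control 4, 30 without deficient 2 and 0 without deficient 4, and 12 without deficient 3. Over all genes, calls in either direction numbered 683, 574, 377 and 1055 without controls 1 to 4, against 1655 with all animals. They numbered 3562, 1667 and 476 without deficient 2, 3 and 4. With an array left out limma called 4 members without array 1, 3 without array 2, 0 without array 3 and 30 without array 4. Calls over all genes were then 1144, 904, 211 and 2883. Where 0 members were called, 22 to 23 were still lower by an unadjusted limma p-value under 0.05. The median of the members lay between -0.56 and -0.32 in the 12 settings that left out an animal or an array. Aurka was called in 8 of the 12, Aurkb in 7, Cdc20 and Kif20a in 6, Ccna2 and Plk1 in 5, Nusap1 and Ttk in 4, and the other 7 called members in 3 each. With sex as a further term 4 members were called, and 0 in the 3 control and 2 deficient females (20 unadjusted in limma), with medians of -0.46 and -0.48. Over all genes these fits called 812 and 40.

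Markers of the cell types in the sample were read from the same fit, and they differed between lists and within them. All 10 hepatocyte markers listed passed the filter on background, and 5 of them fell (Fgb, Tf, Ttr, Ahsg and Serpina1) and 0 rose (1 higher unadjusted in limma), with a median of -0.57. Of those not called, Alb (-1.01 ± 0.28), Cps1 (-0.48 ± 0.20) and Hnf4a (-0.16 ± 0.10) were lower. Apoa1 (0.35 ± 0.15) and Apob (0.24 ± 0.15) were higher. Their summed intensity, on a linear scale, was 1573670 to 1919660 in controls and 1033910 to 1501970 in deficient animals, with deficient 1 the lowest of all 8. Of 16 names listed for neutrophils and myeloid progenitors, Elane2 and Ela2 beside Elane among them, 7 were tested. Of these, 5 fell (S100a8, S100a9, Defa5, Np4 and Camp), while Lcn2 was higher without a call (0.45 ± 0.24, limma adjusted p = 0.263). Sums were 2606 to 4352 in controls and 1756 to 2457 in deficient animals. Of the enzymes that define the progenitors, Elane, Prtn3 and Ctsg were well above background in 0 of the 8 samples, and Mpo differed by 0.06 ± 0.11 (limma adjusted p = 0.78). Of 20 erythroid markers 11 were tested, Tfrc (the transferrin receptor) rose and 0 fell (2 lower unadjusted in limma), with sums of 470371 to 827744 in controls and 222063 to 579243 in deficient animals. The erythroid factor Gata1 was well above background in 0 samples and Klf1 in 3. The myeloid sum was lowest in deficient 2 and the erythroid sum in deficient 4. The 11 Kupffer cell names hold 1 gene under 2 names, Emr1 and Adgre1, with the same probe, which enters the sum 2 times. This sum was 36682 to 57662 in controls and 34375 to 53280 in deficient animals, with deficient 1 the lowest of all 8. Skeletal muscle markers, 6 of 16 tested with 1 called higher, summed to 1347 to 1853 in controls and 2394 to 11906 in deficient animals, the highest being deficient 3. Of the other marker lists, Cd3g of 4 lymphocyte and Lrat of 9 stellate cell markers fell. Limma called 0 of the 11 Kupffer cell names, 7 endothelial and 4 cholangiocyte markers (0, 2 and 1 lower unadjusted). The part of these cell types in the lower mitotic transcripts was not tested.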

How the data were processed

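RNA of each liver was measured in 1 dye of a two-colour Agilent array, and the file of a sample is the scanner output of its array. The submitters' processing notes name Agilent Feature Extraction, version 10.7.1.1. The deposited intensities are, per the file headers, mean spot signals, local background medians and processed signals, and probe positions are on rn4. A deposited table of normalised values was used only as an alternative, as log2 values; the labels and headers do not state how the authors normalised it. Both channels of an array were identified by identical deposited spot data, and each sample's own channel was taken through its dye label.

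Spots with local background above 5 times the channel median (74 spots) were left out, and normexp background correction (offset 50, which shrinks differences of dim probes), loess within arrays and Aquantile between arrays were applied with limma 3.58.1 in R 4.3.3. Control spots had weight 0, outlier spots were left out, spots of a probe were averaged, and no spot was saturated. A probe was kept where at least 0.5 of its spots were well above background in at least 4 samples, and the brightest probe stood for a gene. Median spot signals were 153 to 299 over backgrounds of 33 to 58, and 59.1% to 65.5% of spots were well above background; 4 arrays limit the precision. Limma was fitted over all 15011 genes with diet and dye as terms and array as a random block (correlation 0.423), with Benjamini-Hochberg adjustment and a threshold of 0.05. The code was tested on simulated data. Symbols of 3795 probes were updated through RefSeq (GRCr8), and members were kept by the name in the files.

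The members and lists were chosen with earlier results of these data known. Every member is named, with values in every animal for up to 14 called members with the smallest p-values and for Ccnb1, Cdk1, Foxm1, Plk1 and Top2a. Cdc25b is shown in full because its order differed, chosen after its values were seen. Other cell cycle lists name up to 4 genes with the smallest p-values, and Mybl2 is added because its protein is named in the background. Alternatives changed the background correction, normalisation, filter, probes, model terms and samples.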

Additional observations from a re-analysis of the deposited data

Results flagged for a closer look

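Racgap1 was examined with the other members measured in all 8 animals for single animals far from the rest of their group, in 68 groups of values. In deficient replicate 1 its log2 intensity was 7.43, against 8.06 in the nearest deficient animal, a gap of 0.862 of the group's range and above the 95% critical value of 0.829 for 4 samples. It was the only 1 of the 68 groups flagged. Chance gives such a gap in about 1 group of 20, so 1 in 68 is no more than chance gives. The same animal had the lowest value of 33 of the 35 members tested. Top2a was not among the 68 groups. Its value in this animal was 7.79, against 8.96 in the nearest deficient animal, a wide gap that was not tested.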

How the results depend on the processing

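For the 35 members of the main fit, all 937 fitted differences in 27 alternatives were below 0. Of these, 672 were on the same side of the limma threshold as reported, 214 lost and 51 gained a call. The 5 dim members, fitted only with no filter, are not in this count. Their plain differences ran from -0.19 for Nek2 to 0.09 for Hmmr. No alternative called a member higher. The median over members lay between -0.64 (Agilent processed signals) and -0.32 (without array 2). The number of calls moved more. Against 15 members, 1655 genes in all, 28 genes of the other lists and 15 member probes called, keeping spots in high local background gave 9 members, 958 genes and 15 genes of the other lists, Agilent processed signals 6 members, 17 other genes and 6 probes, and the authors' deposited values 9 members and 16 other genes. Without the dye term there were 2, 843, 11 and 2 calls in that order, without the array block 0 (22 members unadjusted), 389, 4 and 0, with within-array ratios, which pair the animals of an array, 2, 463, 10 and 3, with sex 4, 812, 17 and 5, in females only 0 (20 members unadjusted), 40, 0 and 0, and with sample weights (0.322 for deficient replicate 1) 28, 2841, 47 and 28. Without array 1 they were 4, 1144, 14 and 4, without array 2 3, 904, 14 and 4, without array 3 0 (22 members unadjusted), 211, 3 and 0, and without array 4 30, 2883, 53 and 32. With no filter on dim probes 10 of 40 members tested were called, and 19 genes of the other lists. Leaving out 1 animal gave 0 to 30 members, 377 to 3562 genes, 3 to 61 other genes and 0 to 33 probes. The cause of these changes was not tested. Replicate numbers follow sample order and pair no animals, so the only pairing analysed was that of the 2 animals on each array. Signal over background limits the 5 members that were not tested, and for the members not called the intervals still allow a lower level.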
